A study of Mus musculus with 12 samples.

Results

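The genes described here encode the proteins of the cytosolic ribosome: the large 60S subunit (Rpl genes, with Rplp0, Rplp1 and Rplp2 for its acidic stalk) and the small 40S subunit (Rps genes and Rpsa). A probe set was taken as a member when the platform annotation gave it exactly 1 gene symbol, and that symbol was Rpl or Rps followed by a digit, or Rpsa, Rplp0, Rplp1 or Rplp2. Rps6k kinases and pseudogene symbols were left out. This gave 49 probe sets for 35 genes among the 12422 probe sets of the array that are not controls. Of these, 28 probe sets for 25 genes were bright enough to be tested: 10 large-subunit genes, 14 small-subunit genes and the stalk gene Rplp0. A further 39 probe sets carry several symbols of which at least 1 is a ribosomal protein gene and are given as counts only.

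Cerebral cortex was taken from mouse embryos at E16.5, a stage when progenitors beside the ventricle still divide and young neurons fill the cortical plate. There are 2 arrays for each of 6 groups, namely the whole hemisphere and its occipital, rostral, ventral, dorsal and medial pieces. No treatment, transgene or mutation is named for any group, and the strain and the number of embryos per dissection are not given in the sources used here. The titles call 1 piece rostral, but the protocol has a lateral piece in its place; the name in the titles is used. By the labels, the experiment was done 2 times with independent dissections. The protocol describes poly(A)+ RNA, although the molecule is labelled total RNA. As a check of the tissue, 10 of 11 postmitotic neuron markers and 8 of 10 radial glia markers on the array were tested. At most 1 of these neuron markers, and none of the radial glia markers, was at the floor on any array. All 12 arrays had been scaled to 1 level, with 2% trimmed means of 2501.6 to 2501.9, and 39.1% to 41.7% of probe sets lay above the filter described below. Red blood cell markers were highest, and the 5′ to 3′ ratio of the actin control lowest, on 1 hemisphere array. The ratio of the GAPDH control did not stand apart there. These measures are given beside the results for that array. In pieces of tissue, fewer cells of a type and less RNA per cell cannot be told apart.

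A ribosome holds 1 copy of nearly every one of its proteins, and cells make them in matched amounts. Their mRNAs are short, abundant and present in every cell, and most begin with a 5′ terminal oligopyrimidine tract, which couples their translation to mTOR signalling. Ribosome production takes a large share of the resources of growing and dividing cells, and Myc proteins promote it. Single ribosomal proteins also act outside the ribosome.

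The value of a probe set is the average difference, a linear brightness that can fall below 0. Values under a floor of 693.5 were set to it before log2 was taken, and a probe set was tested if it exceeded 1387 on at least 2 arrays, as 5832 did. Most tested members were bright: 19 of the 25 genes averaged above 32768 over the 12 arrays, as did 119 other tested probe sets that carry no ribosomal protein symbol. The other 6 were dimmer: Rpl13a and Rpl22 averaged 12473 and 9400.1, Rps27 2601, Rps29 1948 and Rps4l 1888, and Rps13 averaged 8.8, below the floor. Brightness depends on the probes, so levels are compared between arrays and never between genes.

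The ribosomal protein genes moved together, and the array that stood farthest from the rest was replicate 1 of the hemisphere. The shift of an array is the median over the 25 genes of the log2 value minus that gene's own mean over the 12 arrays, with the brightest probe set standing for each gene. It was 0.39 on hemisphere replicate 1 and 0.048 on hemisphere replicate 2. In the medial piece it was -0.034 and 0.057, and in the dorsal piece -0.0047 and 0.031, in the order of the replicate numbers. Medial and dorsal arrays therefore lay close to the middle. In the ventral piece it was -0.012 and -0.23, in the rostral piece -0.12 and -0.027, and in the occipital piece 0.12 and -0.11. The lowest array was thus ventral replicate 2, where 2 of 25 genes were above their own mean, against 22 of 25 on hemisphere replicate 1. Of all tested probe sets, 50.2% and 48.3% were above their own mean on these arrays. Over all tested probe sets the same shift stayed between -0.018 and 0.024. The spread inside a pair was as wide as that between groups: the group means ran from -0.12 ± 0.15 (SD, n = 2) in the ventral piece to 0.22 ± 0.24 (SD, n = 2) in the hemisphere, with a pooled SD of 0.14.

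**Figure D1:**
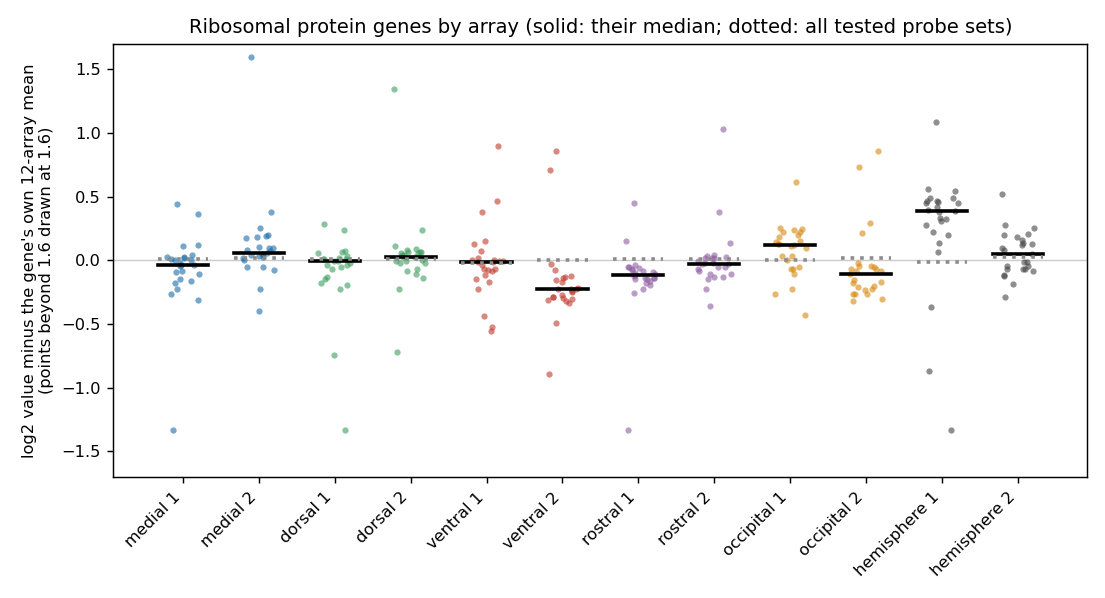
Each point is 1 of 25 ribosomal protein genes on 1 array, as its log2 value minus its mean over the 12 arrays. Solid lines mark the median of these genes and dotted lines that of all tested probe sets. The median is highest on hemisphere replicate 1 at 0.39 and lowest on ventral replicate 2 at -0.23, while the dotted lines stay between -0.018 and 0.024.

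Both subunits shared the high level of hemisphere replicate 1: the median deviation was 0.33 over the large-subunit genes and 0.45 over the small-subunit genes. The 33 tested probe sets with several symbols, which played no part in these medians, stood at 0.47 on that array and at -0.021 on its partner. Several measures that are not ribosomal moved on the same array. The 119 other bright probe sets had a median of 0.17 there, and 0.11 on hemisphere replicate 2. With the other probe sets split by brightness, the dimmest band (1628 probe sets) had a median of -0.094 on hemisphere replicate 1. The signal of the 3 tested red blood cell markers, of 7 on the array, summed to 169262 on hemisphere replicate 1 and to between 103285 and 122978 on the other 11 arrays, and none was at the floor. The actin 5′ to 3′ ratio was lowest there at 0.604, in a range of 0.604 to 0.831 over the replicate 1 arrays and of 0.804 to 0.887 over the replicate 2 arrays. The next lowest was 0.665 on ventral replicate 1. Hemisphere replicate 1 also had the highest array mean, at 3513, and the lowest share of probe sets above the filter, at 39.1%. The GAPDH 5′ to 3′ ratio did not stand apart on hemisphere replicate 1. It was 1.01 there, in a range from 0.979 on hemisphere replicate 2 to 1.16 on medial replicate 1. The part of these in the shift was not tested.

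How closely a gene followed the others was described by Pearson's r between its log2 value and the median of the other 24 members over the 12 arrays, which share dissections, scaling and brightness. The median r was 0.79, and 0.64 without hemisphere replicate 1. Over all other tested probe sets the median r with the member median was -0.02, and 9.98% exceeded 0.5, as did 18 of the 25 members. The genes most like the rest were Rps10 (r = 0.95), Rps19 (0.94), Rps28 (0.94), Rps4x (0.93) and Rps3a1 (0.93). These encode small-subunit proteins, but the large-subunit genes Rpl19 and Rpl8 came close behind, both at 0.92. Without hemisphere replicate 1 the highest r was that of Rpl19 (0.88), ahead of Rps28 (0.87). Rps19 is the gene most often mutated in Diamond-Blackfan anaemia, and Rps4x is the X-linked copy of S4. Rps10 read 58206 and 57754 in the medial piece, 59467 and 59847 in the dorsal, 57223 and 45788 in the ventral, 51740 (51739.8) and 53031 in the rostral, 61169 and 48903 in the occipital, and 83345 and 55370 (55370.1) in the hemisphere. It was highest on hemisphere replicate 1 and lowest on ventral replicate 2, as the set was. The genes least like the rest were Rps27 (r = -0.50), Rps4l (-0.44), Rps29 (-0.19), Rpl37a (-0.11) and Rpl22 (0.30). This order rests in part on hemisphere replicate 1. Without it r was 0.12 for Rps27, 0.19 for Rps29, 0.32 for Rpl37a and 0.14 for Rpl22, while Rps4l stayed below 0 at -0.74 and Rps13 went from 0.45 to -0.29. Of the least alike, Rps27, Rps29 and Rpl37a encode small zinc-binding proteins. Low likeness mostly went with low signal: Rps27, Rps4l, Rps29 and Rpl22 are among the dimmer genes named above, and Rps29 was at the floor on 4 arrays. Rpl37a is bright, with a mean of 33537, and Rpl13a, also among the dimmer genes, had an r of 0.67. The part of brightness in the likeness was not tested.

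**Figure D2:**
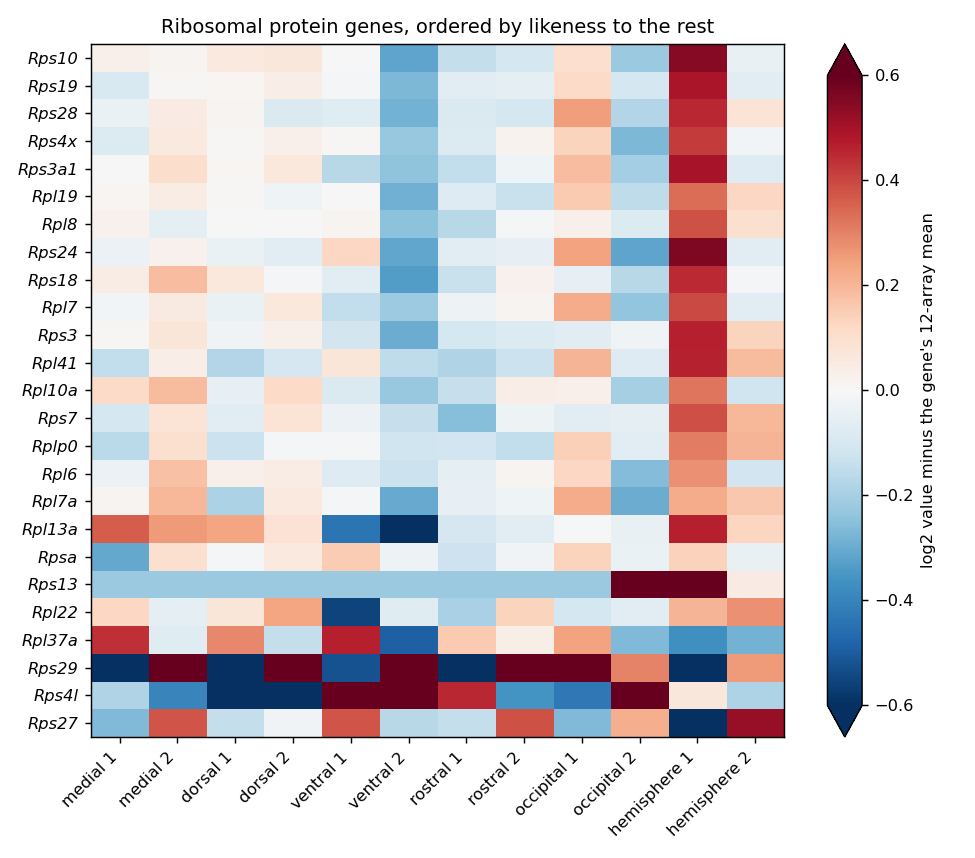
Rows are the 25 tested ribosomal protein genes, ordered by their correlation with the median of the others, and columns are the 12 arrays. Colour is the log2 value minus the gene's mean over the arrays. Most rows are highest in the column of hemisphere replicate 1, and the last rows, Rps27, Rps4l, Rps29 and Rpl37a, are not.

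Because most of these genes varied together, their start sites are shown for 4 of the 5 genes most like the rest (Rps10, Rps28, Rps4x, Rps3a1; Rps19, with 3 start sites in the table, is left out) and for 3 that are described singly or did not follow (Rpl13a, Rpl37a, Rps27). Each is 50 bases before to 30 after the start, 5′ to 3′ on the gene's own strand, from the RefSeq promoters of GRCm38.p6. Capitals mark CTTTCC and CCGGAAG, the latter the core bound by ETS family factors such as GABP, on either strand. CTTTCC on the gene's own strand at the start is a pyrimidine run of the kind that opens terminal oligopyrimidine mRNAs. GGAAAG in Rps4x is its reverse complement before the start, and is no such run.
Rps10 (chr17:27635215-27635294, minus strand): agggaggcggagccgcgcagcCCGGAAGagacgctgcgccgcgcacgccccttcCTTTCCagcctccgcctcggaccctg
Rps28 (chr17:33824533-33824612, minus strand): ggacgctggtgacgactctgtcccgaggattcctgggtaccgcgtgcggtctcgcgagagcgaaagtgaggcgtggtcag
Rps4x (chrX:102189362-102189441, minus strand): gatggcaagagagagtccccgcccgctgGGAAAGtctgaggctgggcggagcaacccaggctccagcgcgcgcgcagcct
Rps3a1 (chr3:86142639-86142718, minus strand): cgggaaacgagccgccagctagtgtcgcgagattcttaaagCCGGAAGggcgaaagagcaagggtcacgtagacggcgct
Rpl13a (chr7:45128716-45128795, minus strand): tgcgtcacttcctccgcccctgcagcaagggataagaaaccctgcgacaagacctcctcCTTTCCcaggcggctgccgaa
Rpl37a (chr1:72711210-72711289, plus strand): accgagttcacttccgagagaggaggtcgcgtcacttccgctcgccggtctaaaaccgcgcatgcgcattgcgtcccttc
Rps27 (chr3:90213619-90213698, minus strand): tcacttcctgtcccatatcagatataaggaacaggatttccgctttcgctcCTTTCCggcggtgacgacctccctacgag

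RefSeq promoters were found for 21 of the 25 tested genes, in 27 entries. In the 100 bases from 50 before to 50 after the start, CTTTCC on either strand was in 10 of the 27 entries (37.0%), against 8.97% of all 32851 promoters. On the gene's own strand it was in 9 of 27 (33.3%), against 4.69% of all. CCGGAAG was in 5 of 27 (18.5%), against 5.21% of all. The shorter run CTTTC, which also lies inside CTTTCC, was in 14 of 27 (51.9%) against 23.4% of all, and CTCTTTC in 3 of 27 (11.1%) against 2.65%. GGAAGTG, a second ETS form, was in 7 of 27 (25.9%) against 5.34%, and CTTCCG, the reverse strand of most of CCGGAAG, in 9 of 27 (33.3%) against 9.12%. AAGATGG was in 2 of 27 (7.41%) against 2.64%, and the TATAAA box in 2 of 27 (7.41%) against 4.94%. On its own strand CTTTCC was found in Rps10, which followed the set, and in Rps27, which did not, and a match describes letters only.

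Over the 6 groups together, limma called 0 of 28 member probe sets different at an adjusted p of 0.05, against 2.37% of all tested probe sets, and 2 members had an unadjusted p under 0.05. The smallest adjusted p were those of Rpl13a (0.12), Rps4l (0.28), Rps3 (0.61), Rpl41 (0.66) and Rpl22 (0.70). The 25 genes spread less over the groups than the array did. Their median span from the lowest to the highest group mean was 0.41 on the log2 scale, against 0.52 for all tested probe sets, with a median SD within groups of 0.18 against 0.26. The highest group mean lay in the hemisphere for 18 of 25 genes and the lowest in the ventral piece for 16. The same shares over all tested probe sets are not given here. In both groups the 2 arrays were unlike, with a member shift of 0.39 and 0.048 in the hemisphere and of -0.012 and -0.23 in the ventral piece. The narrowest spans were those of Rpsa (0.17), also known as a laminin receptor, Rpl6 (0.18), Rps27 (0.29), Rpl10a (0.31) and Rps4x (0.31). The widest were those of Rps4l (1.61, or 3.05-fold), Rps29 (1.00, or 2.00-fold), Rpl13a (0.97, or 1.96-fold), Rps13 (0.79) and Rpl22 (0.55). Rps13 is at the floor on 9 of 12 arrays, so its span rests on 3 readings.

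The hemisphere, against the mean of the 5 pieces, had the largest difference of the set and no member that passed the test. The median difference of the 25 genes was 0.26, with 21 above 0, beside a median of -0.0051 over all tested probe sets. Most members are brighter than most tested probe sets, so this background is not matched for brightness. On the 2 hemisphere arrays the other bright probe sets stood at 0.17 and 0.11, and the members at 0.39 and 0.048. At an adjusted p of 0.05 limma called 0 of 28 members and 0% of all probe sets. At an unadjusted p under 0.05 there were 6 members of 28 and 277 of 5832 probe sets (4.75%). Within replicate 1 the median difference was 0.40 and within replicate 2 it was 0.069. It was 0.083 without hemisphere replicate 1, and quantile normalization, which forces all arrays to 1 distribution, brought it to 0.0044 with 14 of 25 genes above 0.

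In 4 members both hemisphere arrays lay above all 10 arrays of the pieces: Rps3, Rps7, Rplp0 and Rpl8, of 28 tested, against 1.23% of all probe sets. Rps3, a small-subunit protein at the mRNA entry that also takes part in DNA repair, read 83977 and 66759 in the hemisphere. In the pieces it read 61029 and 63844 (medial), 59858 and 62086 (dorsal), 56259 and 49518 (ventral), 56590 (56589.5) and 57360 (57360.3) (rostral), and 58137 and 59829.9 (occipital). The hemisphere thus did not overlap the pieces, but replicate 1 stood well above replicate 2, and the difference of 0.36 ± 0.13 (SE) had a limma adjusted p of 0.96. Rps7 read 91179 and 80057 in the hemisphere, and between 58311 and 73850.1 in the pieces. Its difference was 0.35 ± 0.13 (SE), with a limma adjusted p of 0.96. Rplp0, which anchors the stalk that recruits elongation factors, read 122816 and 114523 in the hemisphere, and between 88919.6 and 109607 in the pieces. The 2 hemisphere arrays were closer to each other in Rplp0 than in Rps3. Its difference was 0.31 ± 0.13 (SE), with a limma adjusted p of 0.96. Rpl41, one of the shortest proteins known in animals, read 162452 and 134286 in the hemisphere and up to 135713 on occipital replicate 1, so its groups overlapped. Its difference was 0.39 ± 0.14 (SE), and that of Rpl13a was 0.36 ± 0.15 (SE), both with a limma adjusted p of 0.96.

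**Figure D3:**
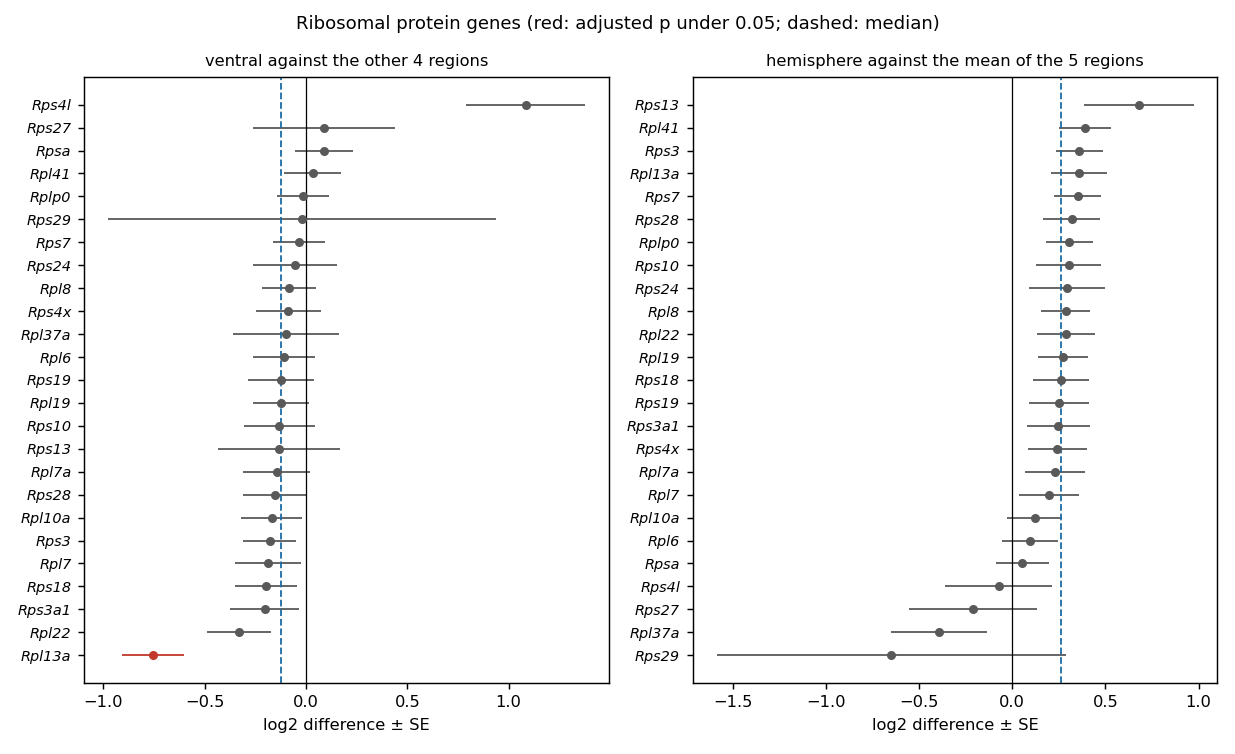
Points are the log2 differences of 25 ribosomal protein genes with bars of 1 SE from the limma fit, for the ventral piece against the other 4 and for the hemisphere against the 5 pieces. Red marks an adjusted p under 0.05 and the dashed line the median. In the ventral panel 21 genes lie below 0 around a median of -0.12 and Rpl13a is red; in the hemisphere panel 21 lie above 0 around 0.26 and none is red.

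In the ventral piece 1 ribosomal protein gene fell, Rpl13a, and the set as a whole lay slightly lower. The median difference from the other 4 pieces was -0.12, with 21 of 25 genes below 0, beside -0.022 and 52.2% over all tested probe sets. The call of 1 of 28 members stands against 9.79% of all probe sets, so members were called no more often than the background. At an unadjusted p under 0.05 there were 2 members, against 23.0% of all. The ventral shift rested on 1 array: the median was -0.0042 within replicate 1 and -0.22 within replicate 2, and 0.0060 without ventral replicate 2. Both ventral arrays lay below the other 8 arrays of pieces in 2 of 28 members (Rps3 and Rpl13a), against 13.5% of all probe sets.

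Rpl13a encodes a large-subunit protein that can also leave the ribosome to silence inflammatory mRNAs. The gene lies on chr7:45125563-45128745 (GRCm38.p6). Its average differences were 15602.5 and 14489 in the medial piece, 14320.4 and 12887 in the dorsal, 8963 and 6548 in the ventral, 11317 and 11589.9 in the rostral, 12140.3 and 11758.5 in the occipital, and 16794 and 13272 in the hemisphere. Both ventral arrays were below every other array, and medial, dorsal and hemisphere arrays lay above those of the rostral and occipital pieces. It fell by 0.76 ± 0.15 (SE) on the log2 scale in the ventral piece (limma adjusted p = 0.018). The call was lost without ventral replicate 1 (-0.98, adjusted p = 0.056) or without ventral replicate 2 (-0.53, adjusted p = 0.20). With the arrays centred on the ribosomal protein genes themselves, an alternative chosen after the data were seen, the difference was -0.65 (adjusted p = 0.038).

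Rps4l, a second copy of the S4 gene beside the X-linked Rps4x, ran the other way. Its probe set read 3244 and 3161 in the ventral piece, 1539 and 1323 in the medial, 1043 and 1056 in the dorsal, 2382 and 1359.5 in the rostral, 1294 and 2893.5 in the occipital, and 1824 and 1531 in the hemisphere. Both ventral arrays were above all others and both dorsal arrays below all others, while the rostral and occipital pairs were split in opposite order. The ventral difference of 1.08 ± 0.29 (SE) just missed the threshold (limma adjusted p = 0.051). It passed under array median centring (1.12, adjusted p = 0.046), under a filter of 4 floors (adjusted p = 0.043) and without the rostral and occipital arrays (1.39, adjusted p = 0.0040). It also passed with a term for replicate number in the fit (a replicate block). It did not pass with other floors, on an arcsinh scale, under quantile normalization or without a filter. Nor did it pass with limma's trend and robust options or without the hemisphere arrays. Apart from these settings, single arrays were left out in fits that keep 1 array in a group, for which only the size is given here. The difference was then 1.18 without rostral replicate 1, 0.94 without occipital replicate 1 and 1.23 without occipital replicate 2. The dorsal difference was -0.93 ± 0.29 (SE), with an adjusted p of 0.41. The probe set's suffix says that it can match several transcripts, and the other probe set for Rps4l stayed between 50.1 and 502 on all arrays. Rps4x, on its 1 bright probe set, read 64679 and 55147 in the ventral piece and between 53551 and 86186 elsewhere, with a ventral difference of -0.087 ± 0.16 (SE).

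**Figure D4:**
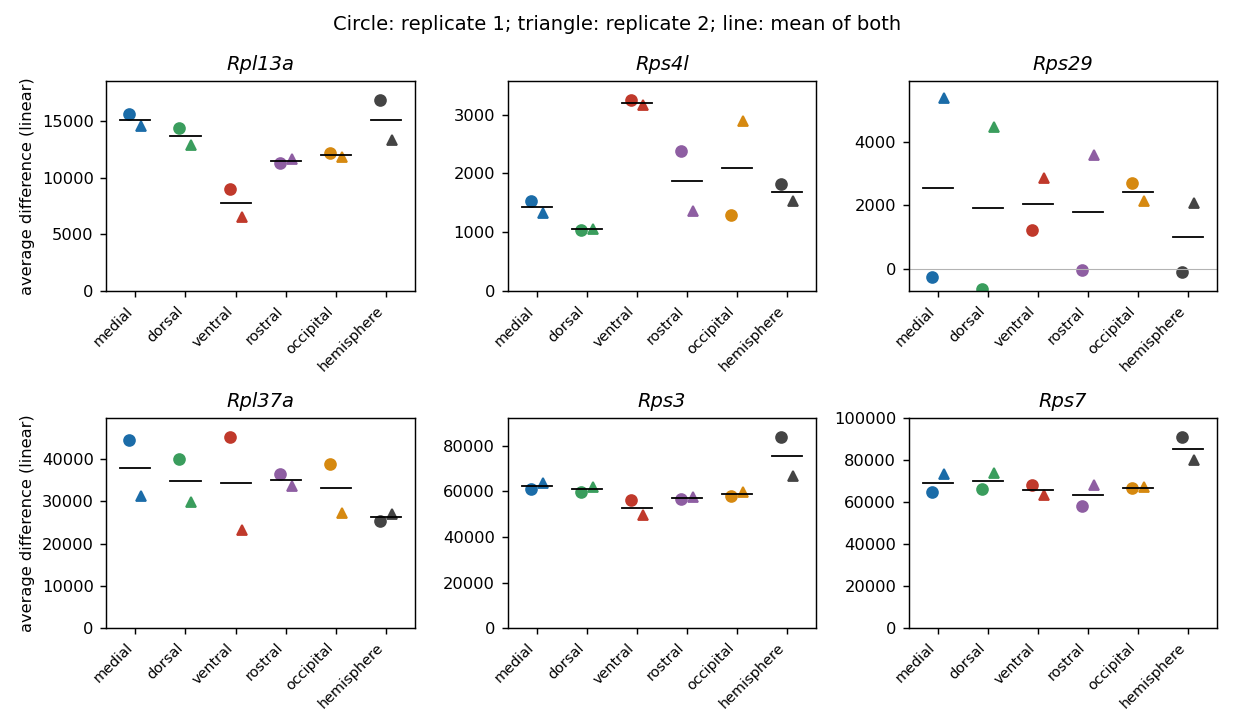
Average differences (linear scale) of 6 ribosomal protein genes by group, with replicate 1 as circles, replicate 2 as triangles and their mean as a line. Rpl13a is lowest on both ventral arrays and Rps4l highest on them, Rps29 and Rpl37a separate by replicate number in most groups, and Rps3 and Rps7 are highest on both hemisphere arrays.

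Set directly against the ventral piece, the medial piece had the higher level of Rpl13a. The difference was 0.97 ± 0.20 (SE, limma adjusted p = 0.015), or 1.96-fold, and it was the call of 1 of 28 members against 11.2% of all probe sets. It was lost without medial replicate 1 (adjusted p = 0.090), medial replicate 2 (0.068) or ventral replicate 2 (0.10). The median of the 25 genes was 0.17, with 20 above 0, 4 below and Rps13 at the floor on all 4 arrays, beside a median of 0.038 over all probe sets. It was 0.0067 within replicate 1 and 0.33 within replicate 2, and 0.022 without ventral replicate 2. Both medial arrays lay above both ventral arrays in 13 of 28 member probe sets, for 12 genes, against 28.4% of all. Rps4l had a difference of -1.17 ± 0.37 (SE, limma adjusted p = 0.084).

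Against the other 4 pieces, the medial piece had a member median of 0.063 with 21 of 25 genes above 0, and the dorsal piece 0.058 with 17 above 0. limma called 0 of 28 members in each, against 1.27% of all probe sets for the medial piece and 0.274% for the dorsal. One member reached an unadjusted p under 0.05 in each: Rpl13a in the medial piece (0.46 ± 0.15 SE, adjusted p = 0.21) and Rps4l in the dorsal. The next smallest p in the medial piece were those of Rpl10a (0.21 ± 0.15 SE), Rps18 (0.20 ± 0.15 SE), Rps4l (-0.37 ± 0.29 SE) and Rpl7a (0.18 ± 0.17 SE). In the dorsal piece they were those of Rpl13a (0.28 ± 0.15 SE), Rpl22 (0.25 ± 0.16 SE), Rps10 (0.14 ± 0.18 SE) and Rpl41 (-0.091 ± 0.14 SE). All 8 of these differences lie within 2 standard errors of 0. Both medians were nearer 0 in replicate 1, at -0.011 and 0.0045, than in replicate 2, at 0.17 and 0.11.

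The rostral and occipital pieces gave opposite pictures in the 2 replicates. Rostral minus occipital, the member median was -0.20 within replicate 1, with 2 of 25 genes above 0, and 0.12 within replicate 2, with 19 above 0. In 19 of 25 genes the sign differed between the replicates, and this difference was not tested. Gene lists outside the ribosome, such as the cell cycle genes, also changed order between the replicates on these arrays. Over both replicates the median was -0.061, with 17 of 25 genes below 0, and it turned to 0.0068 under quantile normalization. limma called 0 of 28 members and 0% of all probe sets, with 0 members and 62 of 5832 probe sets at an unadjusted p under 0.05. The members of smallest p were Rps13, Rpl41, Rplp0, Rps28 and Rpsa, from -0.54 ± 0.38 (SE) for Rps13 to -0.12 ± 0.18 (SE) for Rpsa. The rostral piece against the other 4 had a median of -0.035 (0.013 under quantile normalization), with 0 of 28 members and 0% of all probe sets called. At an unadjusted p under 0.05 there were 0 members and 104 probe sets. Its members of smallest p, Rps7, Rpl41, Rplp0, Rpsa and Rpl19, had differences of -0.11 (Rpl41) to -0.074 (Rpl19). The occipital piece had a median of 0.029 (-0.019 under quantile normalization), again with 0 of 28 members and 0% of all called, and with 0 members and 126 probe sets at an unadjusted p under 0.05. Its members of smallest p were Rps13 (0.54 ± 0.30 SE), Rpl41 (0.16 ± 0.14 SE), Rplp0, Rps28 and Rps4l. Among the arrays of pieces, Rps13 was above the floor only on occipital replicate 2, at 1471. Its differences of 0.54 and -0.54 therefore rest on 1 reading. It entered the test through that array and hemisphere replicate 1 (1714).

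Between replicate numbers, 1 member rose in replicate 2, Rps29, in a comparison in which 17.2% of all probe sets were called. At an unadjusted p under 0.05 there were 4 members of 28 against 36.3% of all. The median of the 25 genes, replicate 2 minus replicate 1, was -0.089, with 19 below 0, beside 0.0029 over all probe sets. This median is a mixture of groups that went different ways. It was -0.33 in the hemisphere (21 of 25 genes lower in replicate 2), -0.23 in the occipital piece (19 of 25) and -0.21 in the ventral piece (22 of 25). It was 0.091 in the medial piece (6 of 25 lower), 0.027 in the dorsal (6 of 25) and 0.049 in the rostral (5 of 25). Over all tested probe sets the same medians lay between -0.0070 (medial) and 0.019 (hemisphere). The replicate number therefore did not move the set in 1 direction over the 6 groups.

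Rps29, a short zinc-binding protein of the small-subunit head, read -255 and 5363 in the medial piece, -634.5 and 4442 in the dorsal, 1216 and 2858 in the ventral, -12.6 and 3570.3 in the rostral, 2688 and 2148 in the occipital, and -101 and 2089 in the hemisphere. Replicate 2 was higher in every group but the occipital, and 4 of the 6 replicate 1 arrays lay below 0. Its difference was 1.75 ± 0.39 (SE) with a limma adjusted p of 0.026, on a scale where 4 arrays sit at the floor. The call was lost without the hemisphere arrays (adjusted p = 0.063) and when any 1 of the medial, dorsal, ventral, rostral or hemisphere arrays was left out. A second probe set for Rps29, between -136 and 761 on all arrays, was too dim to test.

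Rpl37a, a zinc-binding protein of the large subunit, ran against Rps29. It read 44490.5 and 31128.5 in the medial piece, 39976 and 29732.5 in the dorsal, 45232.5 and 23311 in the ventral, 36519.7 and 33629 in the rostral, 38808 and 27289 in the occipital, and 25389 and 26938.5 in the hemisphere. Replicate 1 was higher in all 5 pieces but not in the hemisphere, and hemisphere replicate 1, where most members peaked, was lower than all but ventral replicate 2. The difference between replicate numbers was -0.41 ± 0.13 (SE), with a limma adjusted p of 0.071.

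Probe sets of a gene did not always give the same picture. Rps28 has 3 tested probe sets, with replicate differences of -0.17, -0.22 and 0.83. The first 2 read at least 60791 and 55188 on every array and the third was at the floor on 4 arrays. Rpl10a has 2, both higher on hemisphere replicate 1 (52423 and 25075) than on any other array. Of the 21 member probe sets that were not tested, 11 belong to 10 genes with no tested probe set: Rpl32, Rpl35a, Rpl38, Rpl39, Rpl39l, Rpl7l1, Rps14, Rps15, Rps20 and Rps27l. Their readings ran from -1279.8 (Rpl35a) to 1758.5 (Rpl7l1). Most of these genes are needed by every cell, and a reading near 0 here says nothing of absence.

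The other genes of the protein synthesis machinery, in lists chosen with earlier results of these data known, followed the ribosomal proteins in part. Of 52 tested mitochondrial ribosomal protein genes, whose products build the separate ribosome of mitochondria, 0 passed in the ventral piece (limma, 1 at an unadjusted p under 0.05), with a median of -0.13. Of all tested probe sets, 9.79% passed there and 23.0% had an unadjusted p under 0.05. On hemisphere replicate 1 the median deviation of the 52 genes was 0.27. Between replicate numbers 12 of the 52 were called, beside 17.2% of all probe sets. Of these 10 fell in replicate 2, as 7.44% of all probe sets did, and 2 rose, Mrpl37 (0.41) and Mrps18a (0.89), with a median of -0.20. Of 27 translation factor genes, which start, extend and end protein chains, 0 passed in the ventral piece (limma, 5 at an unadjusted p under 0.05), with a median of -0.11. The shares of all probe sets there are again 9.79% and 23.0%. The median deviation of the translation factors on hemisphere replicate 1 was 0.0055, so that array did not stand apart by this measure. Their summed signal was nevertheless highest there, at 537998, with 507695 on dorsal replicate 2 as the next highest. Of 5 ribosome-associated genes outside the symbol rule, the median deviation was 0.42 on hemisphere replicate 1 and -0.22 on ventral replicate 2. In the medial piece against the ventral, Nap1l1, a histone chaperone, rose (0.73 ± 0.19 SE, limma adjusted p = 0.036) and Serbp1, which binds idle ribosomes, fell (-0.91 ± 0.21 SE, adjusted p = 0.025), in a comparison with 11.2% of all probe sets called.

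Ribosome biogenesis genes, which make and assemble rRNA and subunits, had a ventral median of -0.26 over 38 genes. In the ventral piece 4 of the 38 were called by limma, a share near the 9.79% of all probe sets called there. Of these 3 fell and 1 rose: Ubtf, the rRNA gene factor that works with RNA polymerase I (-0.73 ± 0.18 SE), Ebna1bp2 (-0.82 ± 0.17 SE) and Polr1c, a subunit of that polymerase (-0.55 ± 0.15 SE), against Bysl (0.62 ± 0.15 SE). Among 12 kinases and regulators of ribosomal protein synthesis, Mycn, the Myc family member of neural progenitors, fell in the ventral piece by 0.97 ± 0.13 (SE, limma adjusted p = 0.0035). It was the 1 call among these 12, beside 9.79% of all probe sets. In the same piece 17 of 26 tested cell cycle genes fell and 0 rose, with a median of -1.14, while 5.54% of all probe sets fell. The cell cycle deviation was -0.84 and -0.74 on the 2 ventral arrays, 0.54 and 0.60 on the medial arrays and 0.023 and 0.028 on those of the hemisphere. The ribosomal protein shift was -0.012 and -0.23 on the same ventral arrays. The part of cell type makeup in the ventral values was not tested.

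**Figure D5:**
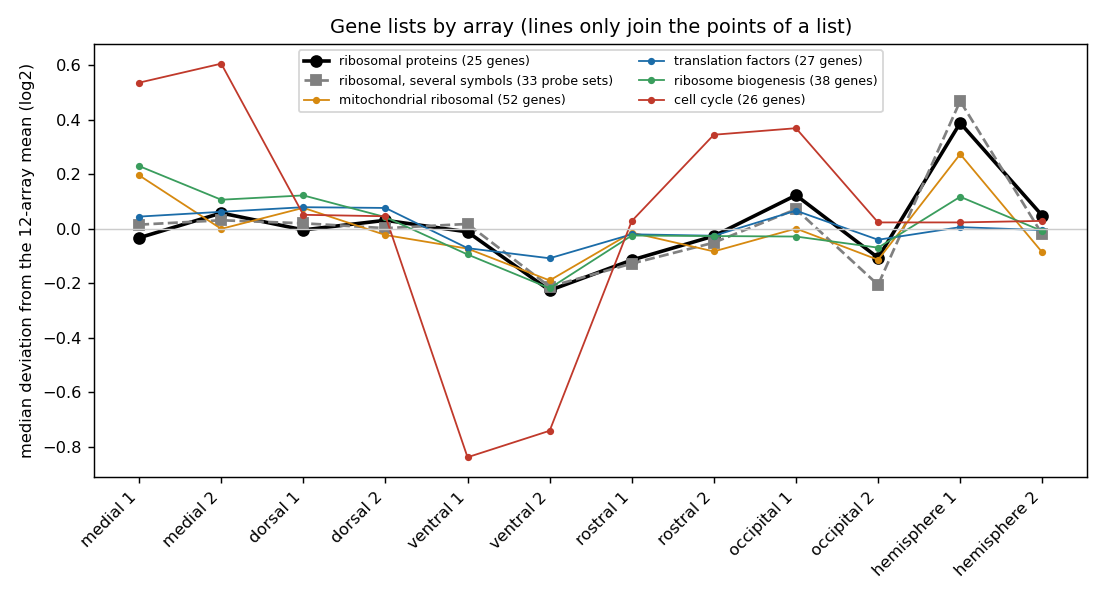
Median deviation (log2) of each gene list from its 12-array mean, by array; lines only join points of a list. The ribosomal protein genes and the 33 ribosomal probe sets with several symbols peak together on hemisphere replicate 1, at 0.39 and 0.47, and the cell cycle genes are lowest on both ventral arrays, at -0.84 and -0.74.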

How the data were processed

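Labelled cRNA from 12 samples was hybridised to Affymetrix U74Av2 arrays, each scanned 2 times, per the labels. The deposited values are intensities, average differences on a linear scale that the authors had scaled to a common trimmed mean; software and version are not given in the sources used here. No further scaling was applied. A floor of 693.5 was taken from the negative values as their root mean square, and probe sets above 1387 on at least 2 arrays were tested (5832 of 12422, 46.9%). The deposited table has 12488 probe sets, of which 66 controls were dropped. Values under the floor were raised to it. RefSeq, matched by gene ID, changed 0 of 49 member symbols. The number of arrays limits the precision.

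log2 values were fitted in R 4.3.3 with limma 3.58.1, with a mean for each group (6 residual and 2.86 prior degrees of freedom), or those means and a replicate term (5 residual). All tests were two-sided. Benjamini-Hochberg adjustment ran over 5832 probe sets per comparison, with a threshold of 0.05. SE is limma's, SD is over the 2 arrays. The fit was tested on simulated data. Each gene is represented by its probe set of highest mean. For comparisons of groups, p-values measure only the spread between 2 dissections per group, pooled over the groups. For replicate 2 against replicate 1, they measure how the replicate difference varied between groups. Members and gene lists were chosen with earlier results of these data known. Named in a comparison were all members past the threshold or, with none, the 5 of smallest p, and in addition the members of widest and narrowest span and of highest and lowest likeness; Rpl41, Rpl37a and Rps4x were also described. The alternatives were 13 settings, each of 12 arrays left out in turn, and 2 chosen after the data were seen.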

Additional observations from a re-analysis of the deposited data

Results flagged for a closer look

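The median rostral minus occipital log2 difference of the 25 ribosomal protein genes had opposite signs in the 2 replicates, at -0.20 in replicate 1 and 0.12 in replicate 2. Other gene lists also crossed on these arrays. The median deviation of cell cycle genes was 0.028 and 0.34 in the rostral piece, and 0.37 and 0.023 in the occipital. Markers of intermediate progenitors crossed in the other order, at 0.38 and 0.20 in the rostral piece, and -0.047 and 0.36 in the occipital. The difference between the replicates was not tested, and each value rests on 1 array per piece. No group held enough arrays for a test of single outlying arrays.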

How the results depend on the processing

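No called member changed direction under any setting run. Members past the threshold over the 6 groups numbered 1 on an arcsinh scale (Rps13), 1 with a replicate block (Rpl13a) and 1 without the rostral and occipital arrays (Rps4l), against 0. Rps13 read at or under the floor on 9 of 12 arrays. In the ventral piece there were 2, Rpl13a and Rps4l, under array median centring, under a filter of 4 floors, with the replicate block and without the rostral and occipital arrays, which also gave 2 in medial against ventral. Between replicate numbers there were 0 without a filter, 3 with limma's trend and robust options, 0 without the hemisphere arrays and 5 with the probe sets of several symbols added. Quantile normalization brought the hemisphere median to 0.0044 and the shift of hemisphere replicate 1 to 0.095. Leaving out 1 array at a time gave 0 to 2 ventral calls, 0 to 2 medial against ventral calls, 0 to 1 replicate calls, a hemisphere median of 0.083 to 0.43 and a medial against ventral median of 0.022 to 0.23. The labels do not say that equal replicate numbers share a dissection. Same-numbered deviations correlated over 0.1 in 14 of 15 group pairs, up to 0.56, and at -0.06 in rostral and occipital. The numbers may mark a shared round of work, which these correlations cannot settle. The main fit did not take the numbers as a pairing, since the labels do not state one. The block took Rps4l in the ventral piece to an adjusted p of 0.045 and Rpl13a over the 6 groups to 0.043 (limma). With the block, 352 probe sets passed over the 6 groups instead of 138, 938 instead of 571 in the ventral piece and 1063 instead of 656 in medial against ventral. Without a filter, 88 passed over the 6 groups and 174 instead of 1004 between replicate numbers. The cause of these changes was not tested. With 2 arrays per group, small shifts of the set cannot be separated from the spread between dissections.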
